A study of Mus musculus with 6 samples.

Results

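The genes of Wnt signalling were followed in mouse P19 cells, embryonal carcinoma cells that turn into neural cells when aggregated with retinoic acid. The set holds every gene whose symbol is Wnt, Fzd, Sfrp, Dkk or Rspo followed by a digit, together with Lrp5, Lrp6, Lgr4, Lgr5, Axin1, Axin2, Lef1, Tcf7, Tcf7l1, Tcf7l2, Ctnnb1, Nkd1, Nkd2, Wif1, Frzb and Sp5. Of 58 such symbols in the annotation, 56 had a probe on the array, out of 17178 genes with a probe, and Lrp6 and Fzd10os were not analysed here. The 56 genes were read by 75 probes, and 17 of them by several. Signal clear of background on 2 or more of the 6 arrays was found for 46 genes, and these 46 were tested among 13381 genes. The other 10 were too dim on at least 5 arrays to be tested: Wnt2, Wnt2b, Wnt3a, Wnt5a, Wnt8b, Wnt10a, Wnt16, Rspo4, Dkk3 and Dkk4.

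A P19 line that expresses AICD, the intracellular domain released from the amyloid precursor protein by gamma-secretase, was set against a P19 line with the empty pCDNA vector. Cells of both lines were taken undifferentiated, after 4 days of aggregation with 500 nM all-trans retinoic acid (aggregated), and after 2 further days on replated dishes (differentiated). One-colour arrays were used, 1 for each line and state, so there was no replicate within any line and state. The labels name neither the promoter that drives AICD nor whether a line is a clone, a pool or several cultures.

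Wnt proteins are secreted lipid-modified ligands that bind Frizzled receptors together with Lrp5 or Lrp6. Receptor engagement stops the complex of Axin, Apc and Gsk3b from marking beta-catenin for destruction, and beta-catenin then enters the nucleus and acts with Lef/Tcf factors on target genes. Several targets, among them Axin2, the Nkd genes and Sp5, act back on the pathway, and secreted Sfrp, Dkk and Wif1 proteins restrain it outside the cell. In the embryo Wnt signalling shapes the posterior body axis and the dorsal neural tube.

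Values are normalized log2 signals, the log2 of the processed signal less the array's 75th percentile, and can be compared between arrays for 1 probe but not between probes. Differences and changes without the word fold are on this log2 scale. The 75th percentile lay between 529 and 878, 62.0% to 65.9% of the spots were well above background, 0 were saturated, and spots of the same probe had a standard deviation of 0.0934 to 0.12. The App probe differed by 0.25, -0.49 and -0.82 between AICD and vector cells in the undifferentiated, aggregated and differentiated state, and it does not check the AICD label, since its place in the transcript is not stated. Pluripotency markers were highest in undifferentiated cells of both lines and neuron markers in differentiated cells. The mean over 6 pluripotency markers was 2.82, -0.03 and 0.54 in undifferentiated, aggregated and differentiated AICD cells, against 3.20, -1.90 and -1.45 in vector cells. Over 7 neuron markers the means were -1.23, 2.11 and 3.33 in AICD cells, against -1.11, 1.43 and 3.67 in vector cells. Over 4 neural progenitor markers they were -0.66, 1.92 and 1.84 in AICD cells, against -1.17, 1.92 and 1.23 in vector cells. Over 4 glia markers they were -1.57, -1.69 and -1.33 in AICD cells, against -1.64, -2.15 and -3.06 in vector cells. Over 3 cardiac and muscle markers they were -2.51, -3.41 and -3.07 in AICD cells, against -0.86, -2.76 and -1.27 in vector cells. The gap in undifferentiated cells came mainly from Nkx2-5 (-3.26 in AICD and 1.66 in vector cells). Myh6 had -5.97 against -5.38 there, and Actc1 went the other way (1.69 against 1.16). The endoderm means lay between -4.82 and -3.84 on all arrays. Over 8 mesenchyme markers they were -2.78, -4.34 and -4.49 in AICD cells, against -2.19, -1.14 and 0.70 in vector cells. The pluripotency and mesenchyme means were thus further apart between the lines in aggregated and differentiated than in undifferentiated cells, as many Wnt genes were, and their part in the results was not tested. In aggregates the pluripotency gap came mainly from Pou5f1 (3.19 in AICD and -2.40 in vector cells) and Gdf3 (0.82 against -4.97). Lin28a had -1.64 against -2.32 there. Sox2 (2.89 against 3.37), Dppa5a (-2.42 against -2.06) and Utf1 (-3.05 against -3.02) were not higher in AICD aggregates. Fewer cells of a type and less RNA per cell cannot be told apart in such samples.

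Wnt1, Wnt3, Wnt4, Axin2, Nkd1 and Lgr5 rose in aggregated against undifferentiated cells, while Tcf7l1, Tcf7 and Dkk2 fell. In limma with the line as a block, 24 of the 46 genes passed an adjusted p of 0.05 in this step (52.2%), 15 higher and 9 lower, against 42.1% of all genes tested, of which 14.3% were higher and 27.9% lower. The median log2 change was 0.14 over the 46 genes and -0.306 over all genes tested. In differentiated against undifferentiated cells 18 genes passed (39.1%), 6 higher and 12 lower, against 61.4% of all genes, 20.1% higher and 41.3% lower, with medians of -0.345 over the 46 and -0.444 over all. Sp5 and Wnt10b, high in aggregates, and Rspo3 and Sfrp4, high in undifferentiated cells, met the filter (well above background on at least 2 of 6 arrays) only through the arrays of that state, so that a difference was built in and their calls support nothing. Without such genes 20 of the 24 calls were left on aggregation (13 higher, 7 lower) and 16 of the 18 in differentiated cells (6 higher, 10 lower), against 5206 of 5634 and 7692 of 8215 over all genes. In differentiated against aggregated cells 0 of 46 passed, as did 0% of all genes. Of the 46, 21 had an unadjusted p under 0.05 there, against 32.4% of all genes, and the lowest adjusted p was 0.0675. Both undifferentiated arrays lay on 1 slide and the other 4 arrays on another, so a step out of the undifferentiated state cannot be told apart from the slide. Without either aggregated array 0 of the 46 passed in aggregated against undifferentiated cells (0 of all genes too), and 11 passed without the vector undifferentiated array, while 11 passed in differentiated against undifferentiated cells without the AICD differentiated array and 1 without the vector differentiated array.

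Between the lines, few Wnt genes were 2-fold apart in undifferentiated cells and many were in aggregated and differentiated cells. With the 3 states as blocks in limma, 0 of the 46 genes passed in the comparison of AICD with vector, against 0.351% of all genes (0.209% higher and 0.142% lower). An unadjusted p under 0.05 was found for 13 of the 46, against 12.5% of all genes, and the lowest adjusted p was 0.139. The error of this test comes from how the line difference varies from state to state, and is large for a gene whose difference is unequal among them. Within a state there is no test, and counts refer to genes well above background on both arrays. In undifferentiated cells 5 of 39 genes were at least 2-fold apart (12.8%), 4 higher and 1 lower in AICD cells, against 8.32% of all genes, 4.21% higher and 4.11% lower. In aggregated cells 13 of 39 were (33.3%), 3 higher and 10 lower, against 7.33% of all genes, 4.21% higher and 3.12% lower. In differentiated cells 19 of 39 were (48.7%), 9 higher and 10 lower, against 8.57% of all genes, 4.62% higher and 3.96% lower. Genes detected on 1 of the arrays and at least 2-fold apart by their bound added 4 higher in undifferentiated, 2 higher and 1 lower in aggregated, and 3 lower in differentiated AICD cells. Fitted alone, the 4 arrays of the second slide, which hold no undifferentiated cells, gave 2 calls among the 46 genes, Wif1 and Wnt4, both lower in AICD cells, against 0.725% of all genes (97, of which 34 were lower).

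**Figure D1:**
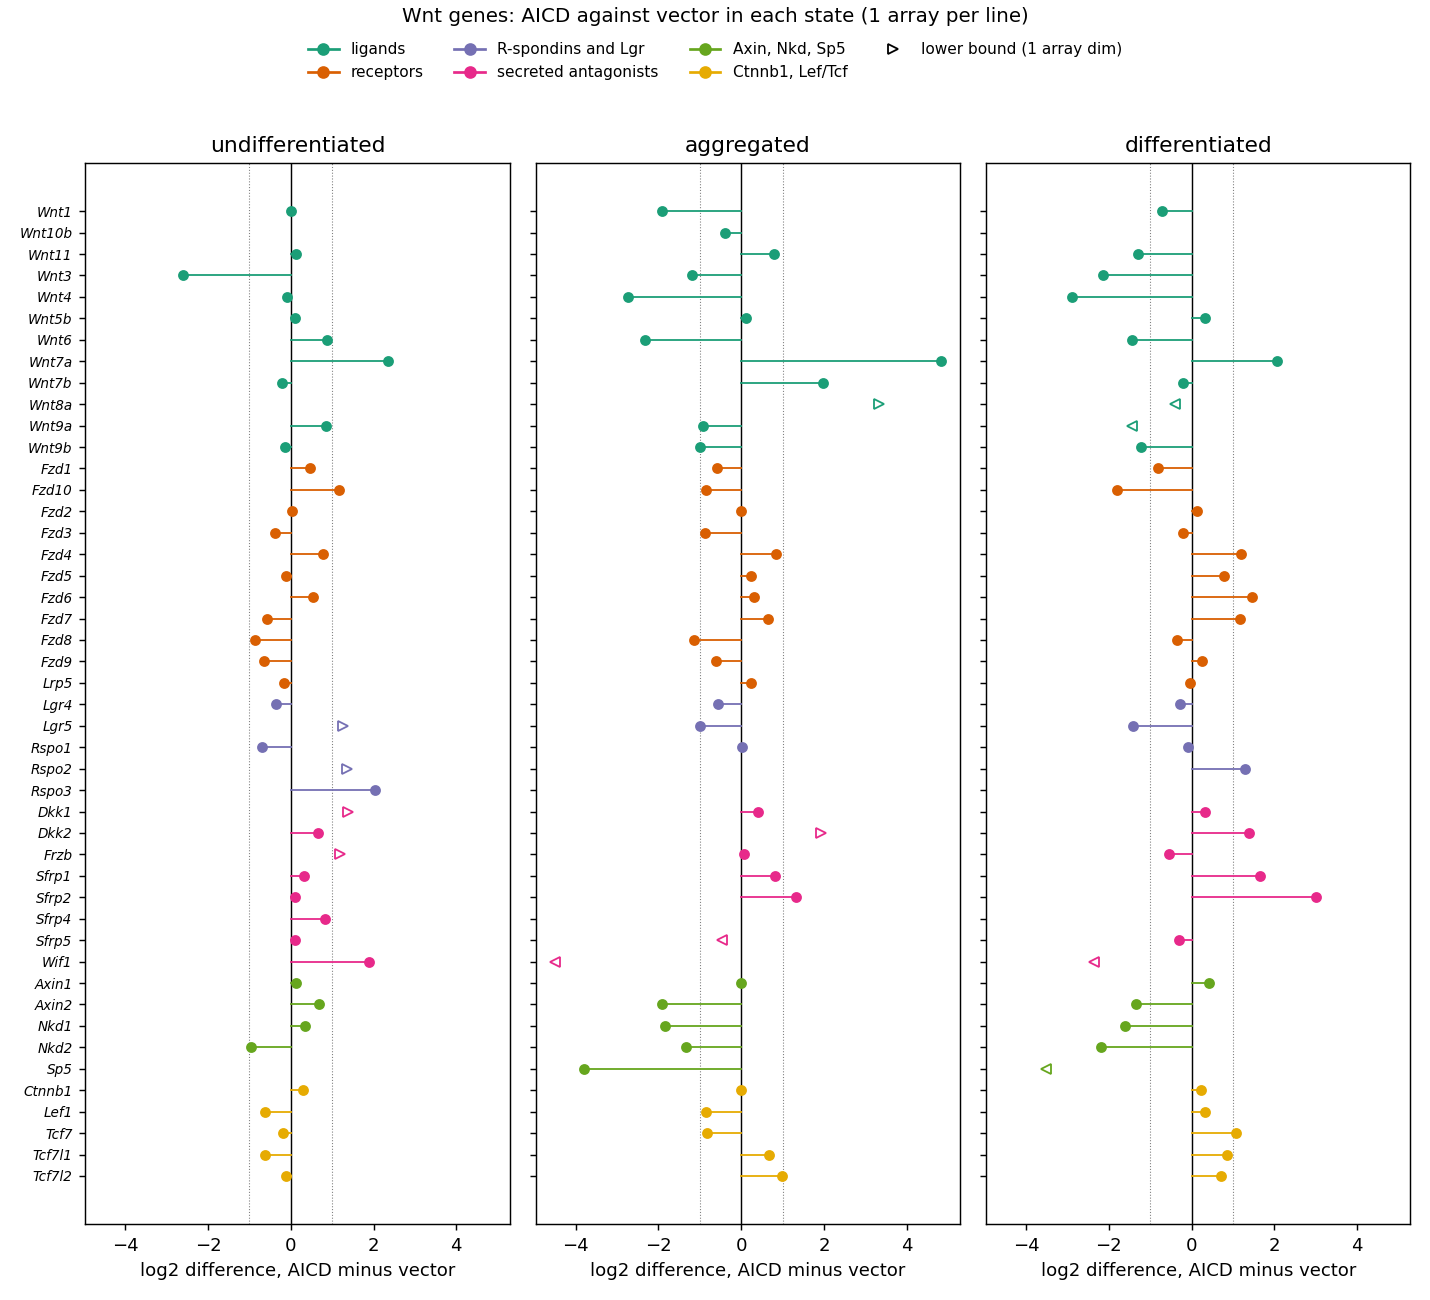
Log2 difference of the normalized signal, AICD minus vector, for each Wnt gene (rows, coloured by role) in the undifferentiated, aggregated and differentiated state, 1 array per line. Dots are genes well above background on both arrays, open triangles are lower bounds where 1 array was dim, and dotted lines mark a 2-fold difference: 5 of 39 dots lie at or beyond them in undifferentiated, 13 in aggregated and 19 in differentiated cells.

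Of the 5 intracellular feedback genes, Axin2 and Nkd1 rose on aggregation. These, Sp5 and Nkd2 were at least 2-fold lower in AICD than in vector aggregates, against 3.12% of all genes. Axin2, a scaffold of the destruction complex and a widely used Wnt target, had signals of -2.01, -0.10 and -0.58 in undifferentiated, aggregated and differentiated AICD cells, against -2.69, 1.82 and 0.77 in vector cells. It was higher on both aggregated and both differentiated arrays than on either undifferentiated array, and the AICD line was the higher of the 2 lines in the undifferentiated state and the lower in the others. Axin2 rose by 3.21 ± 0.69 in aggregated against undifferentiated cells (log2 change ± limma standard error, n = 2 arrays per state; adjusted p = 0.0316) and by 2.44 ± 0.69 in differentiated against undifferentiated cells (adjusted p = 0.041), though the differentiated call was lost in 2 of 6 alternative settings, quantile normalization and no filter on dim probes, with an adjusted p of 0.0228 to 0.063. The AICD signal differed from the vector signal by 0.68, -1.92 and -1.35 in the 3 states. Nkd1, which binds Dishevelled and dampens Wnt signalling, stood at 0.69, 2.69 and 0.72 in AICD cells, against 0.35, 4.53 and 2.32 in vector cells. In aggregated cells it was up by 2.00 in the AICD line and by 4.18 in the vector line, and the joint change of 3.09 ± 0.61 passed the test (adjusted p = 0.027). AICD differentiated cells were back near the undifferentiated level of Nkd1, a difference of 0.03, whereas vector differentiated cells were still 1.97 above theirs.

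Sp5, a zinc finger repressor of Wnt target genes, was not well above background in undifferentiated cells of either line. Its signals were -7.77, -0.56 and -7.59 in AICD cells, against -7.24, 3.24 and -2.40 in vector cells, so it was detected in aggregates of both lines but in differentiated cells of the vector line only. Sp5 was at least 145-fold higher in aggregated than in undifferentiated cells, at least 37.3-fold in the AICD line and at least 564-fold in the vector line. Such a bound is the bright signal over the lowest that still counted as well above background on the dim array. The AICD signal differed from the vector signal by -3.80 in aggregates and was at least 11.5-fold lower in differentiated cells. Nkd2, a paralog of Nkd1, had -2.05, -3.03 and -3.10 in AICD cells, against -1.08, -1.68 and -0.92 in vector cells. All 3 AICD arrays lay below all 3 vector arrays, by -0.97, -1.35 and -2.19, and a second probe, dim on the aggregated AICD array, gave -0.90, -0.99 and -1.30. The mean line difference of -1.50 ± 0.28 did not pass the test (adjusted p = 0.172, n = 3 arrays per line). Axin1, the constitutive paralog of Axin2, had 1.17, 1.06 and 0.68 in AICD cells, against 1.05, 1.07 and 0.26 in vector cells. Its line differences of 0.12, -0.01 and 0.42 were small beside those of Axin2, and it fell by 0.64 ± 0.18 in differentiated against undifferentiated cells (adjusted p = 0.0394, 0.0245 to 0.0653 over 6 alternative settings, the highest after quantile normalization).

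Promoters of Sp5, Axin2, Nkd1 and Nkd2 are shown because these feedback genes were the 4 that were low in AICD aggregates. Each run holds the 250 bases before the gene's start, 5′ to 3′ on the gene's strand, from RefSeq in build GRCm38.p6, and capitals mark matches, on either strand, to the Lef/Tcf core CTTTG followed by 2 letters that are each A or T.
Sp5 (chr2:70474673-70474922, plus strand): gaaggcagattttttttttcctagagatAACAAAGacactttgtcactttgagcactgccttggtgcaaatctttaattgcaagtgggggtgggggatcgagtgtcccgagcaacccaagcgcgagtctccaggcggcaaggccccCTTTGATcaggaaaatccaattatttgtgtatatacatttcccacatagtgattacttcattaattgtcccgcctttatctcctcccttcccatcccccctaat
Axin2 (chr11:108920099-108920348, plus strand): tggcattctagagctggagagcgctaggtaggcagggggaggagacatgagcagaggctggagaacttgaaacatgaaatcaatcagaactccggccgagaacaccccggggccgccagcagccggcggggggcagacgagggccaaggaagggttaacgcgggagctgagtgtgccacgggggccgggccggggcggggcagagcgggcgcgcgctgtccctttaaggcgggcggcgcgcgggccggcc
Nkd1 (chr8:88527383-88527632, plus strand): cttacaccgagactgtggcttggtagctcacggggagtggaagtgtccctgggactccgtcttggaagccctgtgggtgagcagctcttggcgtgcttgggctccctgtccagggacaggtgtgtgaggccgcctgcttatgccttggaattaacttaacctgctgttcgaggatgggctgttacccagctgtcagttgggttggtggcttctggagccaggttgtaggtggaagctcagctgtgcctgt
Nkd2 (chr13:73847632-73847881, minus strand): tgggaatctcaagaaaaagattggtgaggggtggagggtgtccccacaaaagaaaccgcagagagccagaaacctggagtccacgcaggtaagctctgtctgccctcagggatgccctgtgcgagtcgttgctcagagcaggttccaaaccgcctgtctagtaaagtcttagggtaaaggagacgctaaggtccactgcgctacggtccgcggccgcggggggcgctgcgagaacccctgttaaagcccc
Sp5 had 2 matches, CTTTGTT on the opposite strand starting at position -222 and CTTTGAT at -104, counted back from the last base before the start as -1, while the other promoters printed had 0. Promoters were found for 39 of the 56 genes, 48 in all, and 7 of the 48 (14.6%) had a match, against 14.8% of 32851 promoters of the same length. A match is a description of the letters in this window only.

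Of 12 ligands tested, 6 passed in aggregated against undifferentiated cells, against 42.1% of all genes. The 6 were higher, against 14.3% of all genes: Wnt1, Wnt3, Wnt4, Wnt5b, Wnt9b and Wnt10b. Wnt10b was kept only through its aggregated arrays and its call supports nothing, and without it the share that passed was near that of all genes. Wnt3, a canonical ligand of the primitive streak, had -4.82, 0.52 and -2.20 in AICD cells, against -2.22, 1.71 and -0.06 in vector cells. The AICD array was the lower in each state, and aggregates were the high point of both lines. Wnt3 rose by 4.64 ± 0.39 in aggregated (adjusted p = 0.0112) and by 2.39 ± 0.39 in differentiated cells (adjusted p = 0.0114), each against undifferentiated cells. Its AICD signals were -2.60, -1.19 and -2.13 from the vector signals, and the mean of -1.98 ± 0.32 missed the threshold (adjusted p = 0.139). A second probe, dim on the undifferentiated AICD array, gave -2.75, -1.36 and -2.28.

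Wnt4, a ligand of kidney and gonad development that is also made in the neural tube, had -3.78, -0.78 and -4.41 in AICD cells, against -3.68, 1.95 and -1.51 in vector cells. The lines were 0.10 apart in undifferentiated cells, whereas AICD cells differed by -2.73 in aggregates and -2.89 after replating. Wnt4 rose by 4.31 ± 0.79 in aggregated against undifferentiated cells (adjusted p = 0.0238). On the 4 arrays of the second slide it was lower in AICD cells by -2.81 ± 0.17 (n = 2 arrays per line, adjusted p = 0.0454), whereas over the 3 states it was -1.91 ± 0.65 (adjusted p = 0.374). Wnt1, a signal of the dorsal midline and the midbrain-hindbrain boundary, had -3.93, -1.17 and -4.92 in AICD cells, against -3.93, 0.76 and -4.20 in vector cells. It peaked in aggregates and was near or below its starting level in differentiated cells of both lines. Wnt1 rose by 3.73 ± 0.51 in aggregated against undifferentiated cells (adjusted p = 0.0157), and its later difference of -4.36 ± 0.51 between differentiated and aggregated cells had an adjusted p of 0.0675. AICD aggregates differed from vector aggregates by -1.93.

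Wnt6, a ligand of ectoderm and somite epithelium, had -4.66, -4.02 and -4.22 in AICD cells, against -5.55, -1.70 and -2.77 in vector cells, so its step into aggregates was 0.64 in the AICD line and 3.84 in the vector line, and their mean did not pass (adjusted p = 0.0957). Wnt9b, which directs kidney tubule formation, had -4.65, -3.64 and -5.19 in AICD cells, against -4.52, -2.63 and -3.97 in vector cells, and rose by 1.45 ± 0.32 in aggregated against undifferentiated cells (adjusted p = 0.033). For Wnt9a, a ligand of joint formation, the signals were -4.84, -4.50 and -6.20 (dim) in AICD cells, against -5.70, -3.57 and -4.47 in vector cells, at least 2.73-fold lower in AICD differentiated cells, and its change on aggregation did not pass (adjusted p = 0.197). Wnt10b, which restrains fat cell formation, was detected in aggregates alone, at -4.68 in AICD and -4.28 in vector cells, at least 2.56-fold above undifferentiated cells. Wnt3 and Wnt9b overlap in the annotation on chromosome 11, Wnt10b and Wnt1 are neighbours on chromosome 15, and the dim Wnt10a and Wnt3a neighbour Wnt6 on chromosome 1 and Wnt9a on chromosome 11.

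Wnt7a, a ligand of forebrain neural progenitors and of dorsal limb ectoderm, had -0.08, 0.38 and 1.18 in AICD cells, against -2.43, -4.45 and -0.88 in vector cells. Every AICD array lay above every vector array, by 2.35, 4.83 and 2.07 within the states. The mean of 3.08 ± 0.63 did not pass the test (adjusted p = 0.200). Wnt7b, its close paralog, differed by -0.22 and -0.20 in undifferentiated and differentiated cells, whereas in aggregates it stood at -0.44 in AICD and -2.43 in vector cells, a difference of 1.98. Wnt8a, a ligand of the early mouse epiblast and primitive streak, was at -2.57 in AICD aggregates and dim in vector aggregates, at least 10.1-fold higher in AICD cells. In the differentiated state it was dim in AICD cells and at -5.51 in vector cells, at least 1.33-fold lower in AICD cells. Wnt11, a ligand of cell movement in gastrulation, differed by 0.12, 0.78 and -1.30. Wnt5b, which signals largely without beta-catenin, differed between the lines by 0.11, 0.11 and 0.32 on the probe used and by 0.15, 0.03 and 0.37 on a second probe. Wnt5b rose by 1.24 ± 0.15 in aggregated and 0.60 ± 0.15 in differentiated cells against undifferentiated cells (adjusted p = 0.0143 and 0.0327), the differentiated one at 0.0233 to 0.0536 over 6 alternative settings, the highest after normexp background correction. Wnt5a was above background on the vector differentiated array alone. In aggregated cells 7 of 11 detected ligands were at least 2-fold apart, against 7.33% of all genes, 2 higher and 5 lower in AICD cells.

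**Figure D2:**
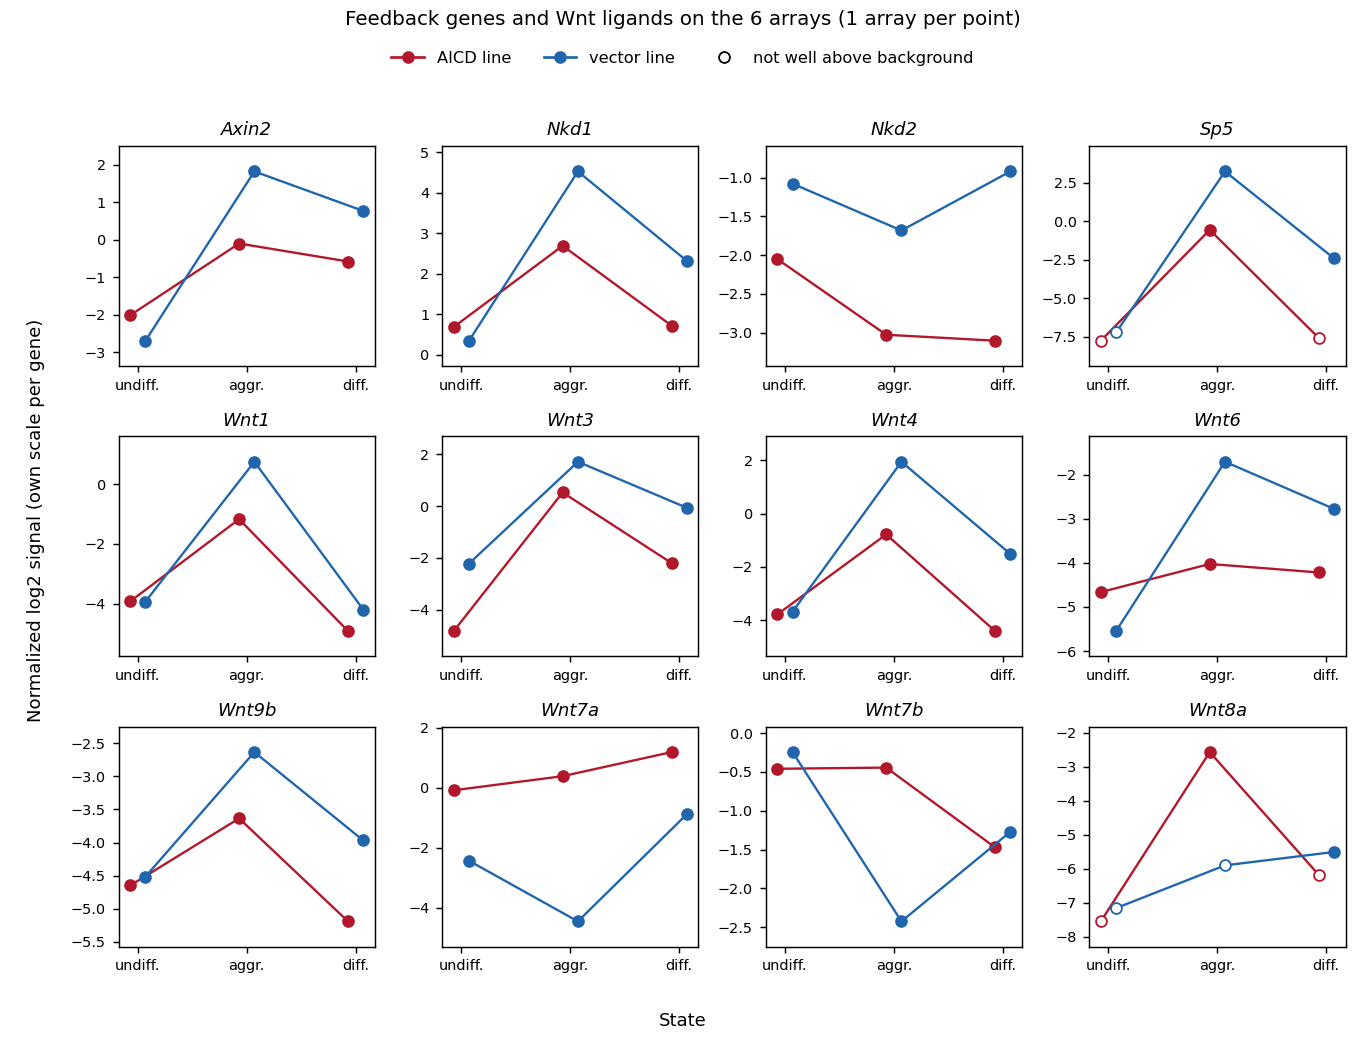
Normalized log2 signal (vertical axis, own scale per gene) of 4 feedback genes and 8 ligands in undifferentiated, aggregated and differentiated cells, 1 array per point, with the AICD line in red and the vector line in blue. Axin2, Nkd1, Sp5, Wnt1, Wnt3 and Wnt4 peak in aggregates of both lines and are lower in AICD aggregates, Wnt7a is higher in AICD cells in every state, and open circles are arrays not well above background.

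Among the Frizzled receptors and Lrp5, 7 of 11 passed in aggregated against undifferentiated cells, 4 higher (Fzd3, Fzd8, Fzd9 and Fzd10) and 3 lower (Fzd5, Fzd6 and Lrp5), against 42.1% of all genes, 14.3% higher and 27.9% lower. Fzd10, a receptor of the dorsal neural tube, had 2.82, 4.84 and 2.62 in AICD cells, against 1.66, 5.69 and 4.41 in vector cells. The AICD signal differed from the vector signal by 1.17 while undifferentiated, by -0.86 in aggregates and by -1.79 after replating, and the second probe gave 0.79, -1.26 and -1.85. Fzd10 rose by 3.02 ± 0.76 in aggregated against undifferentiated cells (adjusted p = 0.0426). Fzd3, which guides axon growth, had -2.27, -0.36 and -0.40 in AICD cells, against -1.89, 0.53 and -0.20 in vector cells. Fzd3 rose by 2.16 ± 0.23 in aggregated and 1.78 ± 0.23 in differentiated cells against undifferentiated cells (adjusted p = 0.0129 and 0.00842). Fzd8 and Fzd9, both receptors of neural progenitors, rose by 1.05 ± 0.24 and 1.18 ± 0.29 on aggregation (adjusted p = 0.0363 and 0.0415). Their steps into aggregates were 0.91 and 1.20 in the AICD line, against 1.20 and 1.16 in the vector line. Without a filter on dim probes, 1 of 6 alternative settings, the calls of Fzd8, Fzd9 and Fzd10 were lost, with the highest adjusted p of each (0.051, 0.0589 and 0.0639, against lowest values of 0.025, 0.0207 and 0.0255).

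Fzd6, a receptor of planar cell polarity, had -0.03, -1.47 and -1.87 in AICD cells, against -0.57, -1.77 and -3.34 in vector cells. Fzd6 fell in aggregated (-1.32 ± 0.34, adjusted p = 0.0441) and in differentiated cells (-2.30 ± 0.34, adjusted p = 0.00989), both against undifferentiated cells. The aggregated Fzd6 call was lost in 2 of 6 alternative settings, quantile normalization and no filter on dim probes (adjusted p = 0.0221 to 0.0635). Fzd5, a receptor of the eye field and yolk sac, fell in the same comparisons (-1.19 ± 0.27 and -1.69 ± 0.27, adjusted p = 0.0342 and 0.0111), with an aggregated adjusted p of 0.0231 to 0.0603 over 6 alternative settings, the highest with the mean of its probes. Its used probe differed between the lines by -0.12, 0.24 and 0.79, and a second probe, dim on 2 arrays, gave -0.39, 1.74 and 1.68. Lrp5, the co-receptor, fell by 0.87 ± 0.18 in aggregated cells (adjusted p = 0.0278) and differed between the lines by at most 0.23. Fzd4, a receptor for Wnts and for norrin in blood vessels, had -1.44, -1.19 and -1.85 in AICD cells, against -2.20, -2.02 and -3.05 in vector cells. Its AICD signal was 0.77, 0.83 and 1.20 above the vector signal, and the mean of 0.93 ± 0.15 missed the threshold (adjusted p = 0.143). Fzd4 fell by 0.63 ± 0.19 in differentiated against undifferentiated cells (adjusted p = 0.0448), a call lost in 3 of 6 alternative settings: normexp background correction, no filter on dim probes and an intensity trend (adjusted p = 0.0325 to 0.0586). Fzd7, a receptor of pluripotent cells, differed by -0.59, 0.66 and 1.16 between the lines, with 0.33, -0.07 and 0.77 on a second probe. Fzd2 had 3.19, 3.36 and 2.98 in AICD cells, against 3.17, 3.35 and 2.85 in vector cells, and its second probe gave -4.05, -3.10 and -3.52 in AICD cells, against -4.31, -3.08 and -3.93 in vector cells. Fzd1 differed by 0.46, -0.60 and -0.81. In differentiated cells 4 of the 11 receptors were at least 2-fold apart, against 8.57% of all genes, with Fzd4, Fzd6 and Fzd7 higher and Fzd10 lower in AICD cells. In aggregated cells 1 of 11 was, lower in AICD cells, against 7.33% of all genes. In undifferentiated cells 1 of 11 was, higher in AICD cells, against 8.32%.

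The R-spondins and their Lgr receptors, which stabilise Frizzled at the membrane, differed from gene to gene. Lgr5, a receptor for R-spondins and a Wnt target itself, had -4.63, -1.12 and -4.18 in AICD cells, against -7.18 (dim), -0.14 and -2.76 in vector cells. It rose in aggregated against undifferentiated cells in limma (adjusted p = 0.0293), by 3.51 in the AICD line and at least 54.1-fold in the vector line. AICD cells were at least 2.4-fold higher than vector cells while undifferentiated and differed by -0.98 and -1.42 later. Lgr4, a broadly expressed relative, passed in differentiated against undifferentiated cells on the brightest of its 3 probes (1.44 ± 0.16, adjusted p = 0.00759), but the mean of its probes gave 0.32 (adjusted p = 0.418). Between the lines the brightest Lgr4 probe gave -0.36, -0.55 and -0.29, whereas the others gave 0.76 and 0.79 in aggregates and 1.43 and 1.14 in differentiated cells. Rspo3, an R-spondin of the embryonic vasculature and placenta, was detected in undifferentiated cells alone, at -3.22 in AICD and -5.25 in vector cells. It was at least 3.04-fold lower in aggregated and at least 3.31-fold lower in differentiated than in undifferentiated cells. Rspo2, an R-spondin of limb and lung, was detected in undifferentiated AICD cells (-4.53) but not in undifferentiated vector cells, and in differentiated cells it had -3.12 in the AICD and -4.42 in the vector line. Rspo1, the R-spondin of ovary development, fell by 0.80 ± 0.24 in differentiated against undifferentiated cells (adjusted p = 0.0475) and differed between the lines by -0.71, 0.03 and -0.10. The Rspo1 call was lost in 3 of 6 alternative settings, normexp background correction, quantile normalization and no filter on dim probes (adjusted p = 0.033 to 0.0651).

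Among the secreted antagonists, Sfrp1 was higher in AICD cells of every state and Sfrp2 in aggregates and after replating. Wif1 was lower in AICD cells in aggregates and after replating. Sfrp2, a decoy that binds Wnt proteins, had 1.60, 2.32 and 3.15 in AICD cells, against 1.51, 1.0 and 0.13 in vector cells. The lines were 0.09 apart while undifferentiated, and AICD cells were then 1.32 and 3.01 above vector cells. Sfrp1, a relative expressed in neural progenitors, had 2.86, 2.72 and 2.99 in AICD cells, against 2.55, 1.90 and 1.34 in vector cells. Its AICD signal was 0.31, 0.82 and 1.65 above the vector signal, with 0.50, 0.81 and 1.76 on a second probe, and the mean of 0.93 ± 0.30 did not pass (adjusted p = 0.354). Wif1, the Wnt inhibitory factor, ran against both. It had -1.75, -6.02 (dim) and -7.78 (dim) in AICD cells, against -3.63, -1.24 and -3.56 in vector cells. Wif1 was 1.88 higher in undifferentiated AICD cells, at least 22.7-fold lower in AICD aggregates and at least 5.14-fold lower in differentiated AICD cells. On the 4 arrays of the second slide it was lower in AICD cells (adjusted p = 0.0395), whereas over the 3 states the adjusted p was 0.607.

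Dkk2, which binds Lrp co-receptors, had -0.69, -4.0 and -3.15 in AICD cells, against -1.35, -5.95 (dim) and -4.55 in vector cells. It fell in aggregated against undifferentiated cells (adjusted p = 0.0117), with -3.30 in the AICD line and at least 24.1-fold lower in the vector line. In differentiated against undifferentiated cells Dkk2 fell by 2.83 ± 0.35 (adjusted p = 0.00823), and its AICD signal was the higher in each state, by 0.66, at least 3.84-fold and 1.40. Dkk1, the best-known antagonist of Lrp6 and a Wnt target in mouse embryos, had -4.52, -3.35 and -5.02 in AICD cells, against -6.86 (dim), -3.75 and -5.34 in vector cells. It was at least 2.59-fold higher in undifferentiated AICD cells and 0.40 and 0.33 higher in the later states, and it passed in 0 of the 4 tests. Frzb, a secreted Frizzled-related protein of cartilage, had -4.71, -3.31 and -2.03 in AICD cells, against -6.09 (dim), -3.38 and -1.50 in vector cells. Frzb rose in aggregated (adjusted p = 0.0407) and in differentiated cells (adjusted p = 0.00921) against undifferentiated cells, and the aggregated call was lost in 2 of 5 alternative settings, normexp background correction and no filter on dim probes (adjusted p = 0.0336 to 0.0624). Sfrp4 was detected in undifferentiated cells alone and was at least 1.75-fold lower in aggregated and at least 1.91-fold lower in differentiated cells. Sfrp5, a relative of Sfrp1, had -3.89, -5.44 (dim) and -5.37 in AICD cells, against -3.99, -4.97 and -5.07 in vector cells, and fell in aggregated and in differentiated cells against undifferentiated cells (adjusted p = 0.0195 and 0.0112).

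**Figure D3:**
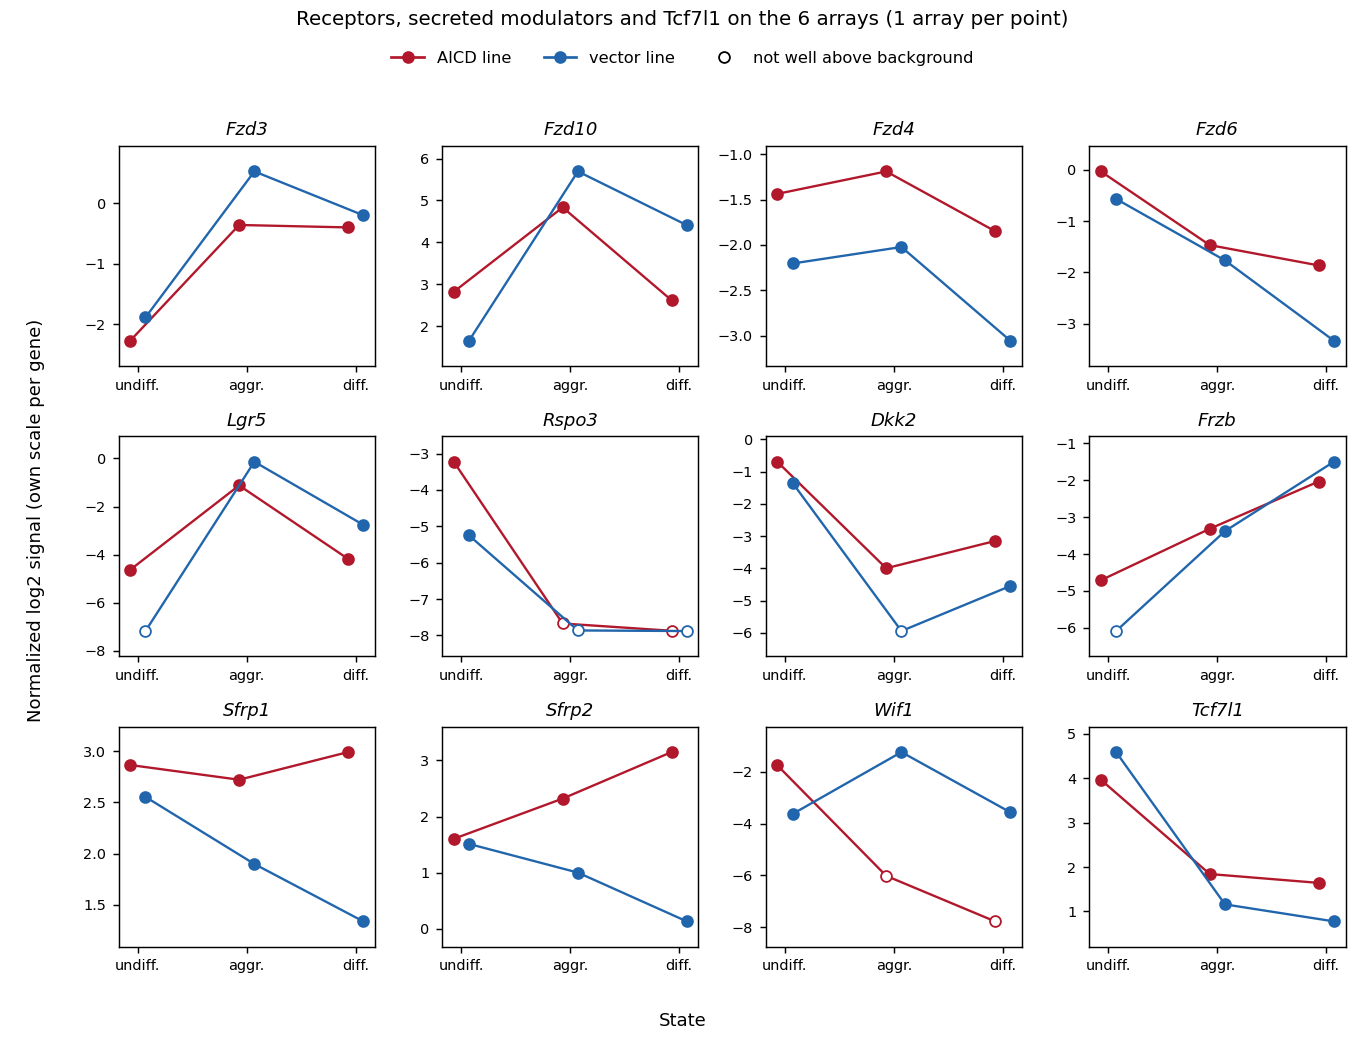
Normalized log2 signal (vertical axis, own scale per gene) of 4 receptors, Lgr5, Rspo3, 5 secreted antagonists and Tcf7l1 in undifferentiated, aggregated and differentiated cells, 1 array per point, with the AICD line in red and the vector line in blue. Sfrp1 and Sfrp2 separate the lines step by step with AICD above vector, Wif1 is dim (open circles) in aggregated and differentiated AICD cells, and Fzd6 and Tcf7l1 are lower in aggregated and differentiated cells than in undifferentiated cells of both lines.

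Of the nuclear effectors, Ctnnb1, which encodes beta-catenin, varied little at the RNA level, from 4.18 to 4.61 in AICD cells and from 3.95 to 4.32 in vector cells. Tcf7l1, the Lef/Tcf repressor of embryonic stem cells, had 3.97, 1.84 and 1.64 in AICD cells, against 4.59, 1.16 and 0.78 in vector cells. Tcf7l1 fell in aggregated (-2.78 ± 0.43, adjusted p = 0.0182) and in differentiated cells (-3.07 ± 0.43, adjusted p = 0.00924), both against undifferentiated cells. AICD cells had the lower Tcf7l1 signal while undifferentiated (-0.62) and the higher one later (0.68 and 0.87), as on a second probe (-0.53, 0.80 and 0.86). Tcf7, an activator that is also a Wnt target in several tissues, had 0.75, -1.59 and -1.69 in AICD cells, against 0.93, -0.77 and -2.76 in vector cells. Tcf7 fell in the same comparisons (-2.02 ± 0.50 and -3.07 ± 0.50, adjusted p = 0.0406 and 0.0116), but its aggregated call was lost in 3 of 6 alternative settings: quantile normalization, no filter on dim probes and the mean of its probes (adjusted p = 0.0164 to 0.0602). Lef1 fell by 1.45 ± 0.34 in differentiated against undifferentiated cells (adjusted p = 0.026), and its line differences were -0.62, -0.86 and 0.33. Tcf7l2, an effector of gut and brain, had 1.32, 1.65 and 0.79 in AICD cells, against 1.43, 0.67 and 0.08 in vector cells, and passed in 0 of the 4 tests. In aggregated cells 0 of the 5 effectors were at least 2-fold apart between the lines, against 7.33% of all genes. In differentiated cells 1 of the 5 was, against 8.57% of all genes: Tcf7, 1.08 higher in AICD cells and 1.25 on a second probe. With 5 genes these counts cannot be told apart from the shares of all genes.

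Each line's own path sets these differences side by side. On aggregation 18 of 38 detected genes moved at least 2-fold in the AICD line (47.4%), 13 up and 5 down, against 27.9% of all genes (10.8% up, 17.2% down). In the vector line 21 of 36 did (58.3%), 14 up and 7 down, against 33.9% of all genes (11.8% up, 22.1% down). Among the ligands the median step was 0.83 in the AICD line and 2.00 in the vector line. Among genes detected on both vector arrays, steps above 4 were those of Wnt1 (4.69), Wnt4 (5.63), Axin2 (4.51), Nkd1 (4.18) and Fzd10 (4.04), and for these the AICD line had 2.76, 3.0, 1.91, 2.00 and 2.01. Genes picked for a large vector step tend to have a smaller AICD step by that choice alone, and the contrast was not tested. Wnt3, below that cut in the vector line, rose by 5.35 in the AICD line and 3.93 in the vector line. On replating 13 of 37 genes moved at least 2-fold in the AICD line (35.1%), 2 up and 11 down, against 11.2% of all genes (6.69% up, 4.5% down). In the vector line 22 of 40 did (55.0%), 4 up and 18 down, against 22.5% of all genes (11.1% up, 11.3% down). Wnt1, Wnt3, Wnt4, Wnt9b, Fzd10 and Lgr5 were among those at least 2-fold lower in differentiated than in aggregated cells of both lines. Wnt7a was 3.56 higher after replating in the vector line and 0.80 higher in the AICD line. Over the whole course 16 of 39 genes were at least 2-fold apart in the AICD line (41.0%), 8 up and 8 down, against 37.8% of all genes (13.2% up, 24.7% down). In the vector line 24 of 37 were (64.9%), 11 up and 13 down, against 50.7% of all genes (17.4% up, 33.3% down).

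**Figure D4:**
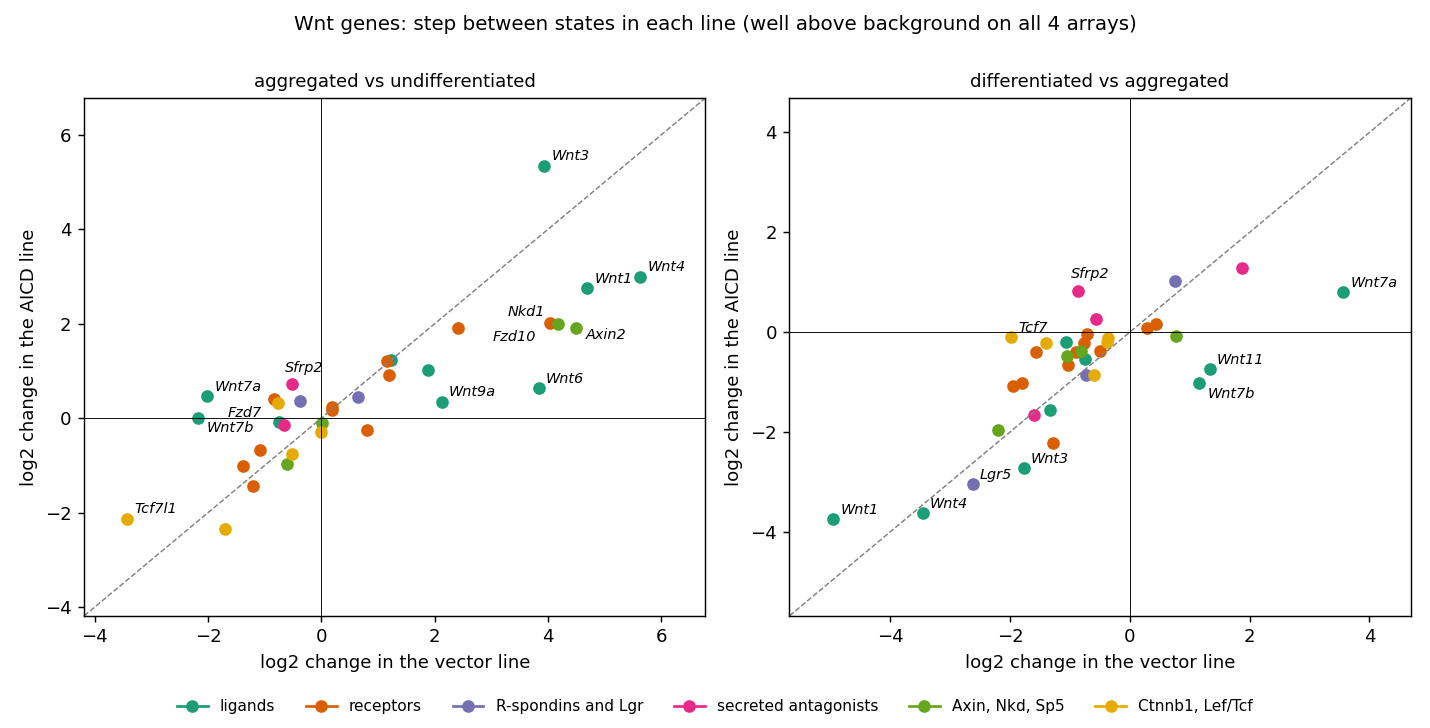
Log2 change of each Wnt gene between states in the AICD line (vertical axis) against the vector line (horizontal axis), for genes well above background on all 4 arrays of a step (34 genes aggregated against undifferentiated, 36 differentiated against aggregated). Points on the dashed line changed equally in both lines: Wnt4, Wnt1, Axin2, Nkd1, Wnt6 and Fzd10 lie below it on aggregation, with vector steps of 3.84 to 5.63 and AICD steps of 0.64 to 3.0, and Wnt3 lies above it.

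A wider list of Wnt pathway genes outside the set (secretion factors, receptor turnover, planar polarity, cytoplasmic and nuclear partners, targets) held 59 symbols, of which 52 were tested. In aggregated against undifferentiated cells 14 rose and 6 fell (38.5%, against 42.1% of all genes, 14.3% higher and 27.9% lower). Those that rose included Wls, the carrier that takes Wnt proteins to the membrane (2.12 ± 0.34, adjusted p = 0.0189), and the polarity gene Celsr2 (2.42 ± 0.24, adjusted p = 0.0126). In differentiated against undifferentiated cells 14 rose and 13 fell (51.9%, against 61.4% of all genes, 20.1% higher and 41.3% lower). The polarity gene Celsr3 (3.67 ± 0.38, adjusted p = 0.00738) and the corepressor Tle2 (4.04 ± 0.41, adjusted p = 0.00734) were among those that rose. Cdx2 and Notum, which rose on aggregation, and Msgn1, which fell in differentiated cells, met the filter only through the state where they were high. For these a difference was built in, and their calls support nothing. Between the lines over the 3 states 0 of the 52 passed in limma, and 2 had an unadjusted p under 0.05 (3.85%, against 12.5% of all genes). Within aggregates 5 of 48 detected genes were at least 2-fold higher and 2 lower in AICD cells, against 4.21% and 3.12% of all genes. The primitive streak factor T had -2.54 in AICD and -4.86 in vector aggregates, and the posterior factor Cdx2 had -1.45 in AICD and -4.06 in vector aggregates. The Wnt-deacylating enzyme Notum, a feedback gene, had -3.89 in AICD and -2.40 in vector aggregates. Sp8, a relative of Sp5, was dim in vector aggregates and vector differentiated cells, and at least 47.2-fold and 71.7-fold higher in AICD cells.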

How the data were processed

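Each of the 6 arrays was an Agilent 1-colour (Cy3) whole-genome array. Per the file headers, the scans were read in version 10.1.1.1 of Agilent Feature Extraction by the authors. Its deposited processed signal is an intensity, background-subtracted and detrended within the array and not scaled between arrays. The array header names genome build mm9, and symbols were looked up by RefSeq accession in the GRCm38.p6 annotation. The authors also deposited a score per probe, which was not used for tests. Of its 34111 listed values, 99.7% equalled, within 0.01, the log2 signal less the 75th percentile and less the probe's median. Negative values were there written as the reciprocal of their size, without the minus sign. The score listed 129 of the 450 values of the Wnt probes.

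Spots of a probe were averaged, outlier spots left out, and the log2 signal taken minus the array's 75th percentile over non-control spots. Probes well above background on at least 2 arrays were kept, and the probe with the highest mean stood for its gene, which left 13381 genes. Models with terms for state and line were fitted across these genes with limma 3.58.1 in R 4.3.3 (files read with data.table, version 1.17.8). Tests were two-sided, with Benjamini-Hochberg adjustment at 0.05. The fit of all 6 arrays had 2 residual and 2.05 prior degrees of freedom, and fits of fewer arrays had fewer residual ones. The script was tested on simulated data. The labels do not say that arrays came from separate cultures, so p-values measure only the spread between these arrays, which may be technical, and the number of arrays limits the precision. That spread is how the line difference varies among the states, in the tests of steps between states too. The 2 arrays of a state are 1 of each line, and those of a line on the second slide are 1 of each state, so neither are replicates. The members, the gene and marker lists and the tests were chosen with earlier results of these data known. Members were named where they passed a test, lay among the largest differences at least 2-fold apart in a state, were detected in 1 line only, or completed the account of a role. No replicate numbers pair the arrays. Alternatives were another background correction (normexp with an offset of 50, on median rather than mean spot brightness), quantile normalization, other filters on dim probes, the mean of a gene's probes, an intensity trend, the second slide alone and leaving out each array.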

Additional observations from a re-analysis of the deposited data

Results flagged for a closer look

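For 3 genes the line difference had opposite signs in different states, with at least a 2-fold difference on each side. Fzd10 was 1.17 higher in undifferentiated AICD cells than in undifferentiated vector cells (log2), and in differentiated cells its difference was -1.79. Its second probe gave 0.79, under 2-fold, in undifferentiated and -1.85 in differentiated cells. Lgr5 was at least 2.4-fold higher in undifferentiated AICD cells, and its difference in differentiated cells was -1.42. Wif1 was 1.88 higher in undifferentiated AICD cells, at least 22.7-fold lower in AICD aggregates and at least 5.14-fold lower in differentiated AICD cells.

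For 4 genes a step between states had opposite signs in the lines. From undifferentiated to aggregated cells, Wif1 was lower by at least 15.9-fold in AICD cells and 2.39 higher (log2) in the vector line. From aggregated to differentiated cells, Wnt7b differed by -1.03 in the AICD line and 1.15 in the vector line. In differentiated against undifferentiated cells, Sfrp2 differed by 1.54 in the AICD line and -1.38 in the vector line, and for Wnt9a the AICD line was lower by at least 2.11-fold while the vector line was 1.22 higher (log2). Each of these values compares single arrays, and the changes of sign between states or lines were not tested.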

How the results depend on the processing

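In differentiated against aggregated cells, where 0 of 46 genes passed in the reported fit, 11 passed after normexp background correction (2 higher, 9 lower), 6 with an intensity trend (1 higher, 5 lower) and 4 of 33 when a probe had to be well above background on all 6 arrays. For AICD against vector over the states, the count was 2 on the second slide alone and 0 to 2 with each array left out in turn (2 without either undifferentiated array). Leaving out each array gave 0 to 22 genes in aggregated against undifferentiated cells, 0 to 0 in differentiated against aggregated cells and 1 to 26 in differentiated against undifferentiated cells, where 24, 0 and 18 passed with all arrays. Counts of genes at least 2-fold apart were lower after normexp correction: 3 in place of 5 between undifferentiated lines, 10 in place of 19 between differentiated lines, and for differentiated against aggregated cells 8 in place of 13 in the AICD line and 14 in place of 22 in the vector line. Genes detected on all 6 arrays gave 3 in undifferentiated cells, with fewer genes compared. The cause was not tested for any setting. The Lgr4 step from aggregated to differentiated AICD cells reversed to -0.15 with the mean of its probes. Quantile normalization moved the median change of all genes on aggregation to -0.127, against -0.306 in the reported fit.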
